A study of Mus musculus with 8 samples.

Results

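Penk, Pdyn and Tac1, the 3 neuropeptide precursor genes that mark the output neurons of the striatum, were followed through all annotated nuclei. They are 3 of 32285 genes in the count matrices. These genes and the gene lists used below were chosen by name, with earlier results of these data known. The 3 genes were read in 55672 nuclei of 18 clusters annotated by the authors and in 32 mice, 4 of each of 8 inbred strains. Among these nuclei were 15395 of Drd1+ neurons and 13203 of Drd2+ neurons.

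Striatal projection neurons form 2 main classes. Neurons with the dopamine receptor gene Drd1 send the direct pathway and carry Tac1 and Pdyn. Neurons with Drd2 send the indirect pathway and carry Penk. Penk encodes proenkephalin, the source of the enkephalins, which act mainly on delta and mu opioid receptors. Pdyn encodes prodynorphin, the source of the dynorphins, which act mainly on the kappa opioid receptor. Tac1 encodes the precursor of substance P and neurokinin A, ligands of tachykinin receptors. The striatum is also divided into striosomes, which are rich in the mu opioid receptor, and the surrounding matrix. Pdyn and Tac1 are known to be stronger in striosomes.

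Striatum was taken at 12 weeks of age from mice of the classical laboratory strains A/J, 129S1/SvImJ, NOD/ShiLtJ, C57BL/6 and NZO/HlLtJ and the wild-derived strains CAST/EiJ, WSB/EiJ and PWK/PhJ, with no treatment named in the labels. The labels write NZO/HlLtJ as NZO/H1LtJ, and give C57BL/6 as C57BL/6J in the series' design and C57BL_6NJ in the table of nuclei, so its substrain is not stated here. The design asks how striatal cells vary with genetic background. Nuclei of 8 mice, each of a different strain, were mixed in each of 4 batches before loading, so free RNA within a batch was common to all its strains. The sex of each mouse is not given in the labels, which state only that batches were balanced. RNA was counted as unique molecular identifiers (UMIs) per gene and nucleus with the 10x Genomics Multiome assay. Of 54141 barcode sequences among the annotated nuclei, 1517 occurred in more than 1 batch.

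The named clusters mostly followed the genes known for them. Summed over 7 direct pathway genes other than the peptides, Drd1+ neurons reached 774 counts per 1000000 (CPM) and Drd2+ neurons 49.2 CPM, with mural cells (1384 CPM) and endothelium (1064 CPM) above both. Summed over 8 indirect pathway genes other than Penk, Drd2+ neurons were highest of the 18 clusters at 935 CPM and Drd1+ neurons lowest at 39.1 CPM. A smaller cluster, called the second Drd1+ cluster here (1506 nuclei), had the highest sum of 7 genes known for eccentric projection neurons, 3301 CPM against 276 CPM in Drd1+ neurons. Median depth was 6505 UMIs per nucleus in Drd1+ neurons, 5953 in Drd2+ neurons and 1640 in oligodendrocytes. Batch 3 was shallower, at medians of 5014 and 4475 UMIs in Drd1+ and Drd2+ neurons.

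In the GRCm38 annotation, Pdyn lies on the minus strand at chr2:129686549-129699938, Penk at chr4:4133536-4138815 and Tac1 on the plus strand at chr6:7555061-7562978. The authors' list of 291715 accessible regions, made from the chromatin reads of the same nuclei, placed 6 regions over Pdyn, 3 over Tac1 and 1 over Penk. Within 50000 bases of the gene there were 27, 11 and 9. RefSeq (GRCm38.p6) gave promoter sequences for Pdyn, with 2 start sites, and Tac1. They are shown because both genes varied with strain and because a deposited region (chr2:129698399-129699398) covers the inner Pdyn start. The bases before the outer Pdyn start (chr2:129699939-129700188) lie in no deposited region and are not shown. A region near the Tac1 start (chr6:7555071-7556070) begins just downstream of it, so the Tac1 bases shown also lie in no deposited region. Region coordinates are given as deposited. Capitals mark matches to the cyclic AMP response element core TGACG (read as CGTCA on the opposite strand) and to the E-box CACGTG.
Pdyn, inner start, chr2:129698659-129698908, minus strand: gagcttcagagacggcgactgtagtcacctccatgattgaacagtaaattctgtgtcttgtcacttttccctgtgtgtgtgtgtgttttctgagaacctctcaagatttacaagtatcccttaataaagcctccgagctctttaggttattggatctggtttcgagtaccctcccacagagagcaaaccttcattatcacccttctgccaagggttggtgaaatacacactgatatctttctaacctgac
Tac1, chr6:7554811-7555060, plus strand: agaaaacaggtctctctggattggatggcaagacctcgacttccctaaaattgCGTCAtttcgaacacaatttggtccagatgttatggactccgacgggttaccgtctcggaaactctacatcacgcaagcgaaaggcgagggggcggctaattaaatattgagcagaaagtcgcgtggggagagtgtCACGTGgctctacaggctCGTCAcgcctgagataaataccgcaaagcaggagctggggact
The Tac1 sequence held TGACG at 197 to 193 and at 43 to 39 bases before the start, and CACGTG at 61 to 56. Of 32851 promoters of this length, 17.765% held TGACG and 6.021% held CACGTG on either strand. The full element TGACGTCA, which contains TGACG, was in 1.546% and the AP-1 motif TGACTCA in 4.463%. Neither was found in the Tac1 or in either Pdyn sequence.

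Penk was by far strongest in Drd2+ neurons. Its pooled level there was 1139 CPM (exact Poisson interval 1132 to 1146 CPM, counting error only), or 7.02 UMIs per nucleus, and 95.03% of these nuclei held at least 1 Penk UMI. Over 32 mice the lowest library had 634.1 CPM, the median 1121 CPM and the highest 2015 CPM. Drd2+ neurons held 78.9% of all Penk UMIs. Next in order came mural cells at 503 CPM, endothelium at 302 CPM and the second Drd1+ cluster at 300.2 CPM. Summed over 12 genes shared by projection neurons, mural cells had 9161 CPM (4th of 18 clusters), ependyma 5277 CPM (5th) and endothelium 5235 CPM (6th), against 12590 CPM in Drd2+ neurons and 1282 CPM in oligodendrocytes, and the part of projection neuron RNA in the peptide levels of these clusters was not tested. Drd1+ neurons had 105 CPM, or 0.707 UMIs per nucleus, below oligodendrocytes in CPM (196 CPM) and above them per nucleus (0.346 UMIs). The gap from Drd2+ neurons to mural cells was 1.91 times the larger SD over mice, and the gap between endothelium and the second Drd1+ cluster was 0.0544 times. These and the following levels are CPM over the plain library total. They are descriptions without a test, since the clusters were made from the expression of the same nuclei.

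Pdyn was found mostly in Drd1+ neurons, which held 85.1% of its 6418 UMIs. The pooled level was 52.5 CPM there, 25.1 CPM in mural cells (33 counts), 20.01 CPM in ependyma (24 counts), 15.5 CPM in the second Drd1+ cluster and 3.53 CPM (3.13 to 3.96 CPM) in Drd2+ neurons. In Drd1+ neurons the mice ran from 29.7 to 116 CPM with a median of 53.7 CPM. A Pdyn UMI was found in 23.8% of Drd1+ nuclei, at 0.355 UMIs per nucleus. Tac1 was highest in the second Drd1+ cluster at 612 CPM (261 to 1382 CPM over mice, median 564 CPM). Drd1+ neurons followed at 309.5 CPM (208 to 700 CPM, median 307 CPM) and, with 15395 nuclei against 1506, held 69.4% of all Tac1 UMIs. The gap between these clusters was 1.20 times the larger SD over mice. Drd2+ neurons had 50.1 CPM of Tac1 and oligodendrocytes 105 CPM.

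**Figure D1:**
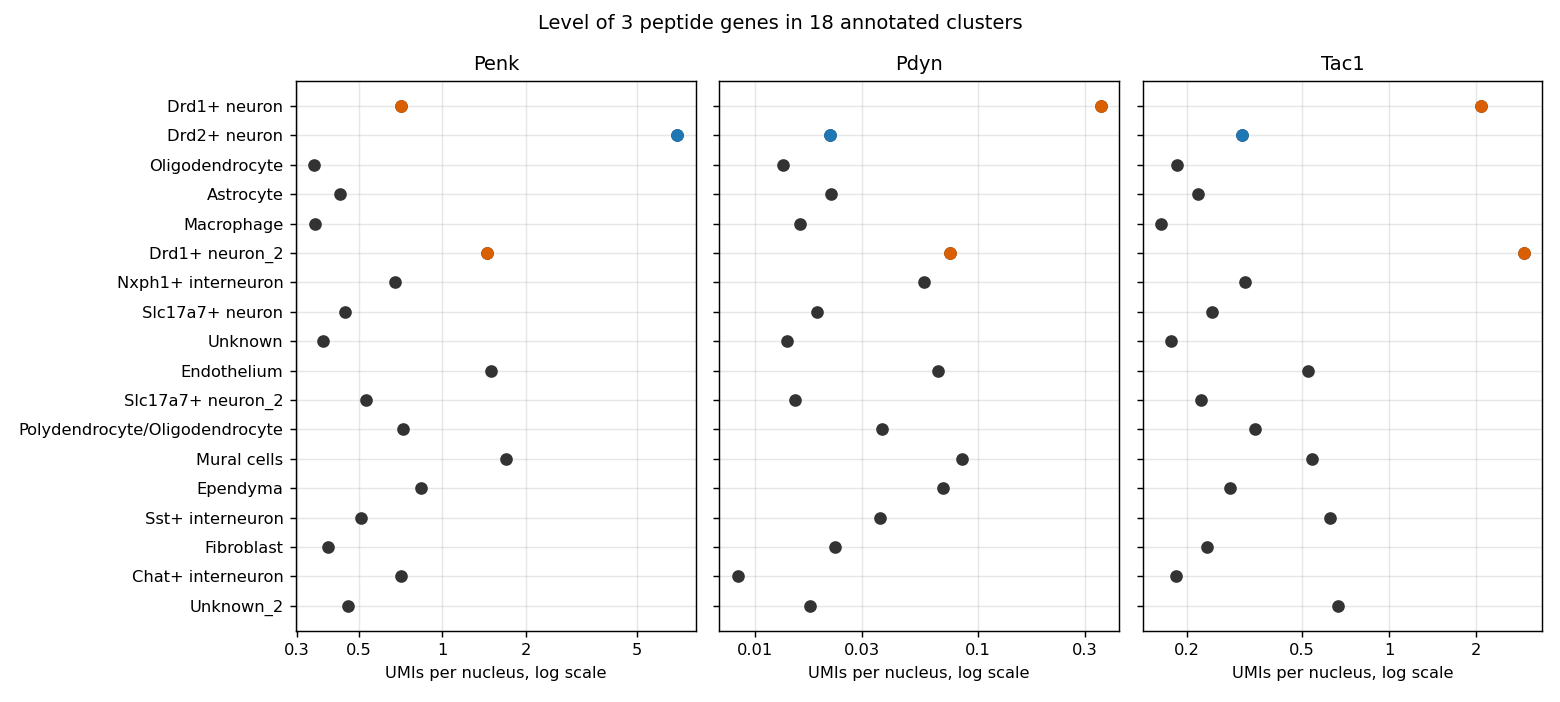
UMIs per nucleus (horizontal, log scale) of Penk, Pdyn and Tac1 in the 18 annotated clusters, each point being all nuclei of a cluster; orange marks the Drd1+ clusters and blue the Drd2+ cluster. Penk stands apart in Drd2+ neurons at 7.02 UMIs, Pdyn in Drd1+ neurons at 0.355 UMIs, and Tac1 in both Drd1+ clusters.

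The split between the pathways held in every mouse. On the per-mouse mean log2 ratio, Penk was 12.1-fold higher in Drd2+ than in Drd1+ neurons in 32 of 32 mice. Pdyn was 17.1-fold and Tac1 6.26-fold higher in Drd1+ than in Drd2+ neurons, also in 32 of 32. Since the clusters were made from the expression of the same nuclei, these directions are descriptions without a test. Nuclei outside the home pathway carried low shares of UMIs that were below those of oligodendrocytes at equal depth. With each nucleus thinned to 1000 UMIs, Penk was seen in 8.79% of Drd1+ nuclei and in 17.8% of oligodendrocytes, against 61.2% of Drd2+ nuclei. Tac1 was seen in 4.78% of Drd2+ nuclei and 9.77% of oligodendrocytes, and Pdyn in 0.265% and 0.713%. Unthinned, the order was reversed, with Penk in 37.0% of Drd1+ nuclei and 27.6% of oligodendrocytes. Tac1 was then seen in 20.5% of Drd2+ nuclei and 15.9% of oligodendrocytes, and Pdyn in 1.98% and 1.31%. The order thus depended on the thinning. Oligodendrocytes are not known to express these peptides strongly, so no expression outside the home pathway is read from these pooled shares alone, and the part of free RNA in them was not tested.

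Across clusters, the genes whose pooled log2 CPM followed Penk most closely were Gpr6 (Pearson r = 0.925 over 18 clusters) and Adora2a (0.920). Both are receptors of indirect pathway neurons. Gng7 and Syndig1l were also among the leading genes. Pdyn was followed by Wfs1 (0.785), Tac1, Ebf1, Drd1 and Ankrd63, and Tac1 by Drd1 (0.825), Lypd1, Pdyn and Impg1. These clusters share libraries and differ in depth, so the coefficients only rank genes.

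The RNA of all 3 peptides counted in Drd1+ nuclei varied with strain. Libraries were sums of a mouse's nuclei in a cluster, tested for a strain term in edgeR's quasi-likelihood model with batch as a block. In Drd1+ neurons, where 61.7% of 13431 genes were called at an adjusted p under 0.05, the adjusted p was 2.94e-09 for Penk, 2.23e-06 for Pdyn and 3.58e-07 for Tac1. In Drd2+ neurons, where 55.9% of genes were called, it was 4.27e-04 for Penk and 0.0171 for Tac1, while Pdyn missed the threshold at 0.557 (edgeR). Being called is thus common in these clusters, and the size and order of the strain differences say more than the call. Tac1 was also called in the second Drd1+ cluster (edgeR adjusted p = 2.01e-04, 17.3% of genes called), where Penk was not (0.130) and Pdyn had too few counts to be tested. In oligodendrocytes, astrocytes and macrophages, where 34.8%, 21.5% and 24.8% of genes were called, neither Penk nor Tac1 was, with edgeR adjusted p from 0.182 to 0.982. The same held in Nxph1+ interneurons and endothelium, where 1.53% and 3.23% of genes were called, and for Penk in the cluster of polydendrocytes and oligodendrocytes (1.24%). The fit without the batch block lost the calls of Tac1 in Drd1+ neurons (edgeR adjusted p = 0.117), of Tac1 in the second Drd1+ cluster (0.507) and of Penk in Drd2+ neurons (0.889). The Tac1 call in Drd2+ neurons was lost without batch 3 (0.161) and without batch 4 (0.265).

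**Figure D2:**
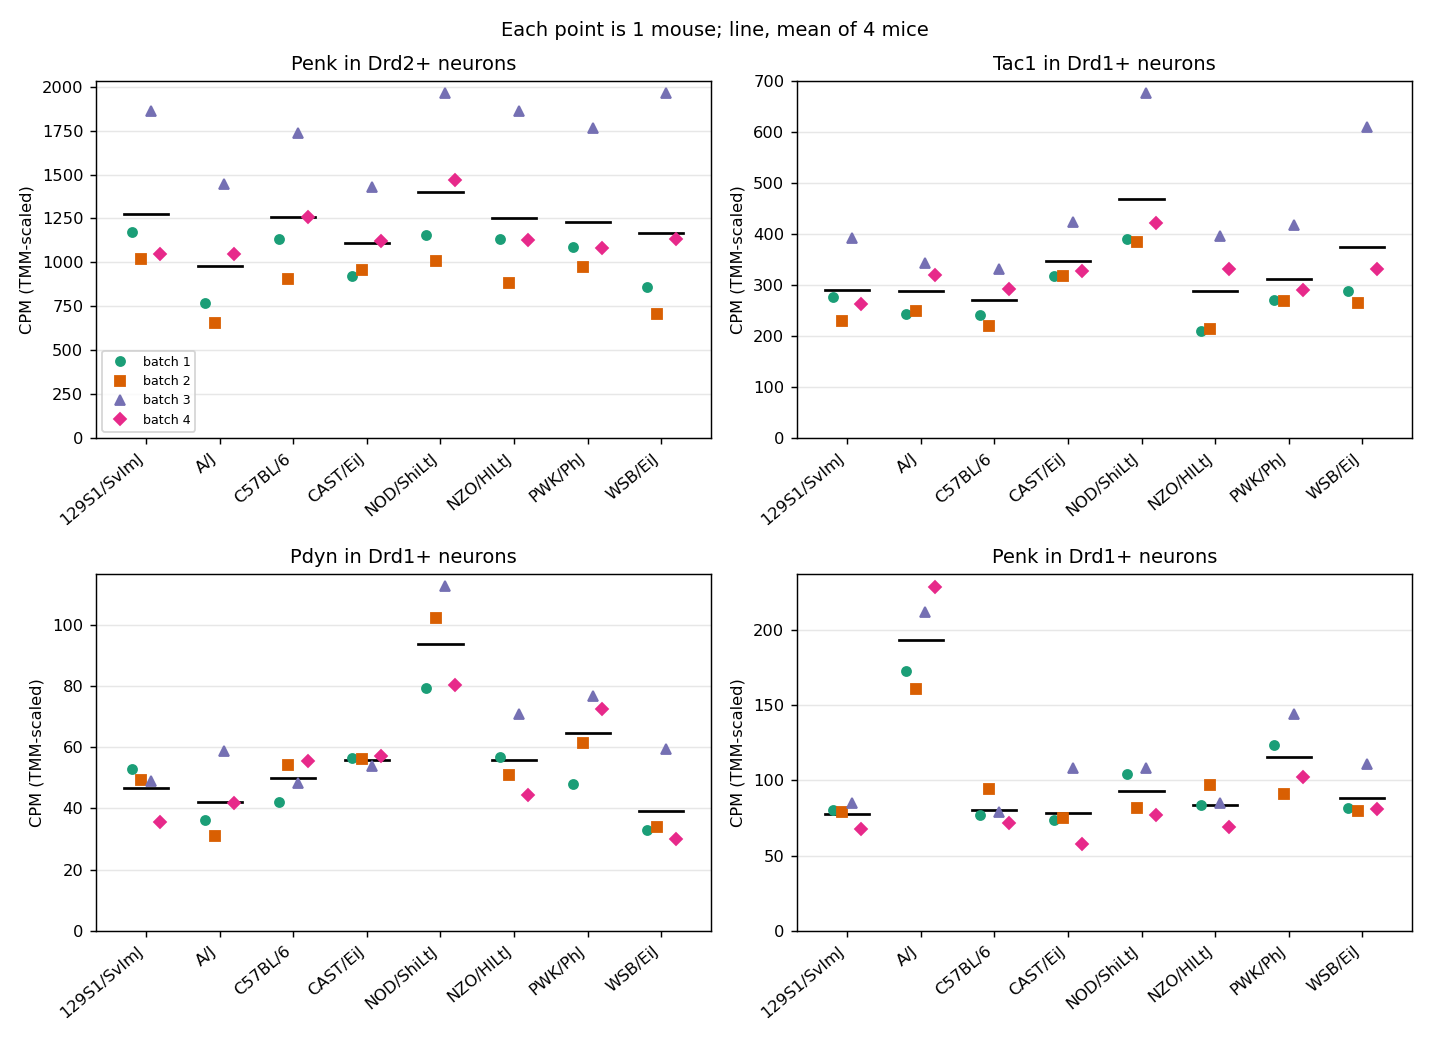
Level per mouse in CPM over the TMM-scaled library (vertical, from 0) for the 8 strains (horizontal); each point is 1 mouse, its shape and color the batch, and the line the mean of 4 mice. The 4 A/J mice lie above all others for Penk in Drd1+ neurons, the 4 NOD/ShiLtJ mice for Pdyn, and batch 3 is highest in every strain for Penk in Drd2+ neurons and Tac1 in Drd1+ neurons.

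Penk counted in Drd1+ nuclei was highest in A/J. The values are of Penk RNA counted in the nuclei of this cluster. With all strains pooled, its share of nuclei with a Penk UMI was below that of oligodendrocytes at 1000 UMIs (8.79% against 17.8%). Unthinned, this share was above that of oligodendrocytes (37.0% against 27.6%). The 4 A/J mice had 172, 161, 212 and 229 TMM-scaled CPM in batches 1 to 4. The 28 mice of the other strains ran from 57.7 to 144 CPM, so no A/J mouse overlapped them. Against the mean of the other 7 strains, A/J was 2.23-fold higher (log2 difference 1.16, SE 0.0889, edgeR adjusted p = 1.38e-10, with 10.6% of genes called higher in this contrast). A/J ranked first in 4 of 4 batches, and all 7 of its pairwise contrasts were called, beside 9.39 to 31.7% of all genes in these pairs. PWK/PhJ came second at 115 ± 23.4 CPM (SD, n = 4) and the remaining 6 strains had means of 77.9 to 92.7 CPM. The step from A/J down to PWK/PhJ passed the test (log2 difference 0.76, SE 0.129, edgeR adjusted p = 4.04e-05, 31.7% of genes called between these strains), and no later step between neighbouring strains did.

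Beside this result stand the values of listed genes. Of 7 direct pathway genes other than the peptides, 5 rose and 2 fell in A/J (median log2 difference 0.26). Over all genes the median was 0.00123, with 10.6% called higher and 6.66% lower. Of 12 genes shared by projection neurons 4 rose and 1 fell, and of 10 striosome genes other than the peptides 0 rose and 2 fell (median -0.27). The summed level of the 8 indirect pathway genes other than Penk in Drd1+ libraries was 28.7 to 63.8 CPM over A/J mice and 22.5 to 66.6 CPM over the rest, with no gene at 0. None of the 5 tested genes of that list was called in A/J, Drd2 having an edgeR adjusted p of 0.339 and Adora2a of 0.217. With nuclei holding any UMI of these genes left out, a choice made after seeing the data, the A/J difference in Penk was 1.46 on the log2 scale (edgeR adjusted p = 3.28e-21). It was 0.82 in nuclei without a UMI of the striosome list (1.29e-07, edgeR). Oligodendrocytes, which shared the pools, had 0.303 to 0.360 Penk UMIs per nucleus over strain means, A/J being at 0.324 and within the range of the others. In Drd1+ neurons A/J had 1.33 ± 0.258 UMIs per nucleus (SD, n = 4) and the other strain means were 0.479 to 0.732. The part of RNA from Drd2+ neurons or free RNA in the A/J difference was not tested.

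Single nuclei showed the A/J difference in both the share of nuclei and the UMIs in each. With nuclei thinned to 2000 UMIs, a Penk UMI was found in 26.3% of A/J Drd1+ nuclei (24.4 to 28.2% over 4 mice), and strain means elsewhere were 12.3 to 17.9%. The other mice reached at most 21.6%. Of A/J nuclei, 2.16% held 3 or more Penk UMIs, and of all Drd1+ nuclei 0.760% did. Among nuclei with a Penk UMI the mean was 1.48 UMIs in A/J and 1.10 to 1.25 in the other strains. Over all thinned nuclei the strain means were 0.135 to 0.362 Penk UMIs, A/J being highest. At such counts both measures rise with this mean, so they are not separate results. Unthinned, 53.2% of A/J nuclei had a Penk UMI and 31.4 to 38.5% elsewhere.

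**Figure D3:**
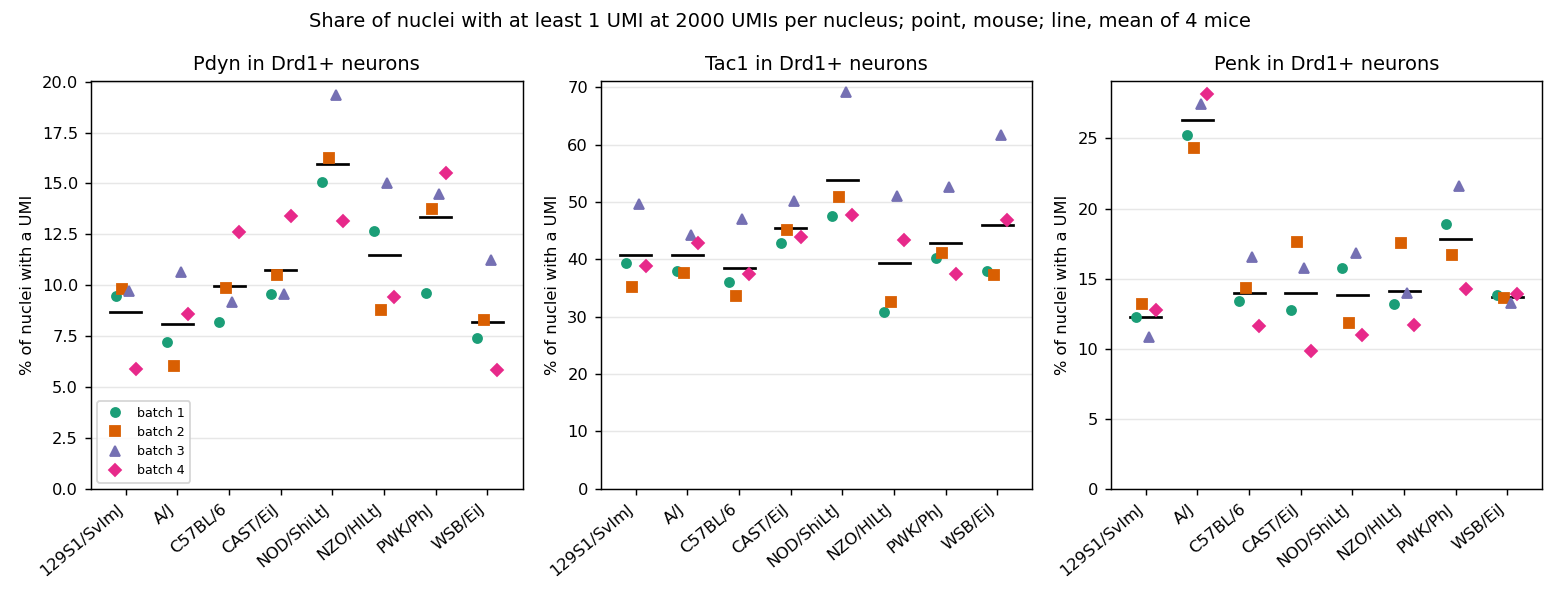
Percent of Drd1+ nuclei with at least 1 UMI of Pdyn, Tac1 or Penk (vertical, from 0) after thinning each nucleus to 2000 UMIs, by strain (horizontal); points are mice with shape and color for the batch, and lines are means of 4 mice. Penk reaches 24.4 to 28.2% in A/J mice, Pdyn averages 16.0% in NOD/ShiLtJ and Tac1 53.8% in NOD/ShiLtJ.

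Other strain contrasts of Penk in Drd1+ neurons were smaller. The strain 129S1/SvImJ was at 0.789-fold of the other 7 (edgeR adjusted p = 0.0335, 4.58% of genes called lower), CAST/EiJ at 0.780-fold (0.0126, 15.9%) and PWK/PhJ at 1.22-fold (0.0251, 17.0% called higher). The mice of these 3 strains overlapped those of other strains. In each of these contrasts the other 7 include A/J, which raises the mean they give. Pairwise, 129S1/SvImJ and CAST/EiJ were called only against A/J and PWK/PhJ, beside 9.39 to 31.1% of all genes in these pairs. Against the remaining strains the edgeR adjusted p was 0.355 to 0.960 for 129S1/SvImJ and 0.211 to 0.960 for CAST/EiJ. The calls of 129S1/SvImJ and PWK/PhJ were lost without batch 1 (edgeR adjusted p = 0.129 and 0.186) and without batch 3 (0.116 and 0.139), and that of CAST/EiJ without batch 1 (0.102) and with thinned nuclei (0.0604). Without the batch block 129S1/SvImJ (0.0767) and PWK/PhJ (0.0512) were not called. In nuclei without eccentric neuron UMIs none of the 3 was called (edgeR adjusted p = 0.377 for 129S1/SvImJ, 0.328 for CAST/EiJ and 0.709 for PWK/PhJ), and in nuclei without striosome UMIs CAST/EiJ (0.552) and PWK/PhJ (0.349) were not. These sets hold only 37.1% and 21.8% of Drd1+ nuclei, and the part of the smaller number of nuclei in the lost calls was not tested. The A/J call was kept in every alternative run, at log2 differences of 0.82 to 1.46.

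In Drd2+ neurons, where Penk is the main peptide, A/J had the lowest mean instead and was lowest in 2 of 4 batches. The A/J mice had 772, 656, 1447 and 1051 TMM-scaled CPM in batches 1 to 4, against means of 1109 to 1400 CPM in the other strains. The ranges overlapped, and batch 3 was highest in every strain, with a mean over strains of 1754 CPM against 889 to 1162 CPM in the other batches. Within batches, A/J was at 0.783-fold of the other 7 strains (log2 difference -0.35, SE 0.0715, edgeR adjusted p = 4.21e-04, 6.14% of genes called lower). NOD/ShiLtJ had the highest mean and was highest in 1 of 4 batches, at 1157, 1009, 1966 and 1468 CPM and 1.19-fold of the rest (log2 difference 0.25, SE 0.0679, edgeR adjusted p = 0.00881, 7.58% called higher), a call lost without batch 4 (0.0763) and with thinned nuclei (0.0679). The fit without the batch block called neither A/J (0.472) nor NOD/ShiLtJ (0.636). Of 12 tested activity-regulated genes, 2 fell and 0 rose in A/J in this cluster, beside 6.14% of all genes called lower. Their median log2 difference was -0.68, against -0.00107 over all genes. In Drd1+ neurons, where Penk was highest in A/J, it was -0.62. For NOD/ShiLtJ in Drd2+ neurons 0 of the 12 were called, with a median of 0.30. The part of these genes in the Penk differences was not tested. Of 28 pairs of strains 7 were called, 5 of them with A/J, where pairwise backgrounds ran from 6.81 to 29.3%, and no step between neighbours in the order passed.

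Whether strain differences differed between Drd1+ and Drd2+ neurons of the same mice was tested as a strain-by-cluster interaction, blocked by mouse. The term covers all strains together, so the opposite positions of A/J were not tested by themselves. Penk was called (F = 12.5, edgeR adjusted p = 7.44e-05), ranking 65th by F of 13791 genes, of which 4.58% were called. Penk was 4.91-fold higher in Drd2+ than in Drd1+ neurons in A/J and 10.5- to 15.8-fold higher in the other strains. The log2 ratios of the A/J mice were 2.166, 2.045, 2.778 and 2.199, all below those of the 28 other mice. Pdyn (edgeR adjusted p = 0.335) and Tac1 (0.478) were not called, and for Pdyn the value fell to 0.0287 without batch 4.

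**Figure D4:**
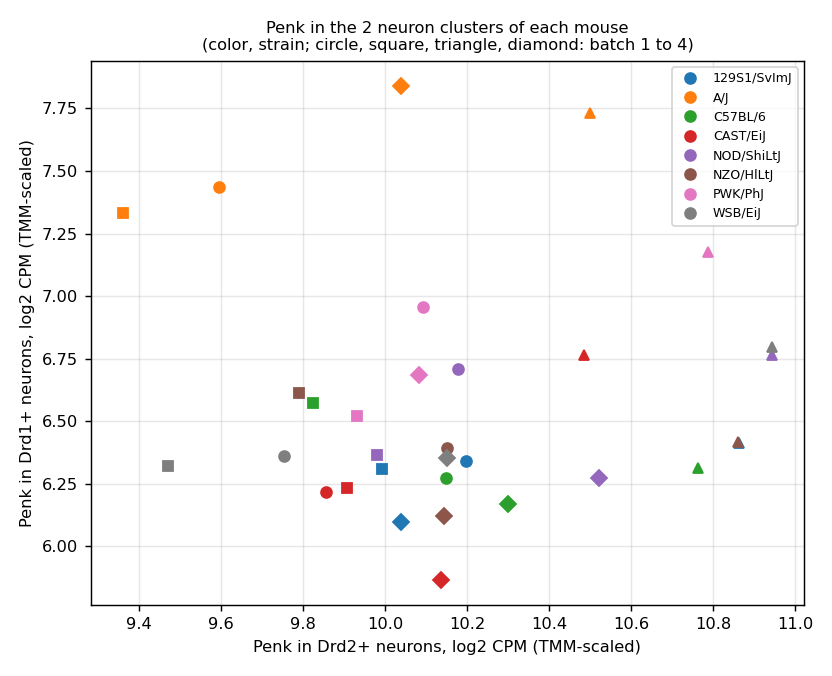
Penk in Drd1+ neurons (vertical) against Penk in Drd2+ neurons (horizontal) of the same mouse, both in log2 TMM-scaled CPM; color is the strain and shape the batch. The 4 A/J mice lie at the top, and within each batch shape they lie left of most strains.

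Pdyn in Drd1+ neurons was highest in NOD/ShiLtJ. Its 4 mice had 79.3, 102, 113 and 80.2 TMM-scaled CPM in batches 1 to 4. The other 28 mice ran from 30.1 to 76.6 CPM, below all of them. The fold over the other 7 strains was 1.88 (log2 difference 0.91, SE 0.115, edgeR adjusted p = 1.51e-06, 9.40% of genes called higher). PWK/PhJ came second at 64.6 ± 12.8 CPM (SD, n = 4), and the step down to it passed the test (log2 difference 0.54, SE 0.156, edgeR adjusted p = 0.0106, 27.2% called between these strains). No later step did. At the low end, WSB/EiJ was at 33.1, 34.0, 59.5 and 30.1 CPM and 0.670-fold of the rest (edgeR adjusted p = 0.00291, 7.30% called lower). A/J was at 36.2, 31.1, 58.7 and 41.7 CPM and 0.726-fold (0.00908, 6.66% called lower), a call lost without batch 2 (edgeR adjusted p = 0.201) and with thinned nuclei (0.0747). The mice of both strains overlapped other strains. In nuclei without striosome UMIs, taken up below, the calls of NOD/ShiLtJ (edgeR adjusted p = 0.276), WSB/EiJ (0.562) and A/J (0.372) were all lost. Of 28 pairs 13 were called, 7 of them with NOD/ShiLtJ, beside pairwise backgrounds of 8.37 to 31.7%.

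Tac1 in Drd1+ neurons was highest in the same strain. The NOD/ShiLtJ mice had 390, 384, 677 and 423 TMM-scaled CPM in batches 1 to 4 and were first of 8 strains in each batch. Across batches they overlapped others, the WSB/EiJ mouse of batch 3 reaching 610 CPM. The fold over the other 7 strains was 1.51 (log2 difference 0.59, SE 0.0721, edgeR adjusted p = 2.06e-07, with 9.40% of genes called higher), and the log2 difference stayed between 0.55 and 0.65 in every alternative run. The step down to WSB/EiJ passed (log2 difference 0.36, SE 0.0997, edgeR adjusted p = 0.0130, 13.6% called between them), and later steps did not. C57BL/6 was at 0.823-fold of the rest (edgeR adjusted p = 0.0121, 5.93% called lower) and NZO/HlLtJ at 0.861-fold (0.0462, 8.74%). Both calls were lost without batch 2 (edgeR adjusted p = 0.0772 and 0.263), and without the batch block (0.433 and 0.590), and that of NZO/HlLtJ also without batch 1 (0.350), with thinned nuclei (0.0939) and in nuclei without UMIs of the indirect pathway (0.0833), eccentric (0.462) or striosome list (0.490). Of 28 pairs 15 were called, 7 with NOD/ShiLtJ, beside pairwise backgrounds of 8.37 to 31.7%. In the second Drd1+ cluster the order differed. PWK/PhJ was highest for Tac1 there at 876 ± 332 CPM (SD, n = 4) and NOD/ShiLtJ lowest at 478 ± 158 CPM. The difference in order between these clusters was not tested.

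For Tac1 in Drd2+ neurons the highest strain mean was 1.48 times the lowest, against 1.72 times in Drd1+ neurons. The strain-by-cluster term of Tac1 was not called (edgeR adjusted p = 0.478). The share of Drd2+ nuclei with a Tac1 UMI was below that of oligodendrocytes when thinned to 1000 UMIs and above it unthinned. CAST/EiJ was highest with mice at 57.7, 54.9, 60.7 and 72.5 TMM-scaled CPM in batches 1 to 4, and 129S1/SvImJ lowest with a mean of 41.7 ± 6.33 CPM (SD, n = 4). The CAST/EiJ mice overlapped those of most strains. CAST/EiJ was at 1.24-fold of the other 7 (edgeR adjusted p = 0.0254, 14.8% of genes called higher) and PWK/PhJ at 1.21-fold (0.0473, 15.2%). Both calls were lost without batch 3 (edgeR adjusted p = 0.0533 and 0.290) and without batch 4 (0.213 and 0.201), and that of PWK/PhJ also without batch 2 (0.116). Both were lost as well with thinned nuclei (0.349 and 0.110) and in nuclei without direct pathway UMIs (0.225 and 0.0948), and that of PWK/PhJ without the filter, without the block and in DESeq2. Pdyn in Drd2+ neurons rested on 287 counts over 32 mice, from 0 to 6.33 CPM, and none of its 28 pairs of strains was called.

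The shares of nuclei with Pdyn or Tac1 were also highest in NOD/ShiLtJ. At 2000 UMIs per nucleus, Pdyn was found in 16.0% ± 2.60 of NOD/ShiLtJ Drd1+ nuclei (SD, n = 4) and in 8.12 to 13.3% over the means of the others. Tac1 was found in 53.8% ± 10.4 of NOD/ShiLtJ nuclei and in 38.6 to 45.9% elsewhere. Both shares differed between strains by a two-sided permutation test of the F statistic within batch (adjusted p = 0.00077 for each, 3 tests). The Penk share in Drd2+ nuclei also differed, from 75.6% in A/J to 85.0% in 129S1/SvImJ (permutation test, adjusted p = 0.00077). This call was lost at 4000 UMIs per nucleus (permutation test, adjusted p = 0.0543), and without the batch block the calls of Penk (0.396) and Tac1 (0.218) were lost.

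Genes of several neuron lists moved with NOD/ShiLtJ in Drd1+ neurons. Of 7 direct pathway genes other than the peptides, 3 rose and 0 fell. Their median log2 difference was 0.43, against 0.00332 over all genes, of which 9.40% were called higher. Of 7 genes known for eccentric projection neurons 4 could be tested in Drd1+ neurons, and all 4 rose in this strain (Col11a1, Otof, Cacng5 and Adarb2, median log2 difference 1.45, against 0.00332 over all genes, of which 9.40% were called higher). Summed over the list, NOD/ShiLtJ mice had 362 to 388 CPM and other mice 139 to 478 CPM, none of the 7 genes being at 0. Of 10 striosome genes other than the peptides, 3 rose and 1 fell, Col11a1 being on both lists. Nnat rose (log2 difference 0.94, SE 0.241), while Oprm1, the mu opioid receptor, fell (-0.99, SE 0.151, edgeR adjusted p = 1.58e-05, 6.48% of genes called lower), and the list summed to 455 to 654 CPM against 263 to 560 CPM. Of 9 matrix genes 3 fell. In nuclei without a UMI of the eccentric list, a choice made after seeing the data, Pdyn in NOD/ShiLtJ stayed higher (log2 difference 1.01, edgeR adjusted p = 1.72e-05). In the 21.8% of nuclei without a UMI of the striosome list, also chosen after seeing the data, it was 0.51 higher and not called (edgeR adjusted p = 0.276), and the calls of WSB/EiJ (0.562) and A/J (0.372) were lost too. PWK/PhJ had the highest Pdyn mean in that set, 57.2 CPM against 54.4 CPM in NOD/ShiLtJ, and was called (log2 difference 0.56, edgeR adjusted p = 0.0381). Tac1 in NOD/ShiLtJ was called in both sets (log2 differences 0.65 and 0.56). In bulk sums over nuclei, more nuclei of a kind and more RNA per nucleus cannot be told apart.

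Lists of genes around the peptides were called at shares on both sides of the background, which is no result about them. Of 12 genes that cleave, amidate or store peptides, 10 varied with strain in Drd1+ neurons, as did 3 of 4 tested opioid and tachykinin receptor genes, 3 of 8 peptidases and none of 5 other peptide precursors, against 61.7% of all genes (edgeR). Pcsk2, the prohormone convertase 2 gene, fell in NOD/ShiLtJ (log2 difference -0.23, SE 0.0556, edgeR adjusted p = 0.00225) and rose in A/J (0.22, SE 0.0532, 0.00240). Oprk1, the kappa receptor that dynorphins act on, rose in NOD/ShiLtJ (0.43, SE 0.112, edgeR adjusted p = 0.00649). The median log2 differences of the 12 processing genes were 0.05 in NOD/ShiLtJ and -0.06 in A/J, near the 0.00332 and 0.00123 of all genes.

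Levels were also related over the 32 mice, as batch-centred log2 CPM, in 6 relations tested with permutations within batch. The 4 mice of a strain are not independent of each other, and these p-values do not allow for that, so r after removing strain means is given for each relation as the within-strain r. Penk in Drd2+ neurons went with Pdyn in Drd1+ neurons (r = 0.640, permutation p = 0.00017, adjusted p = 0.00102; rho = 0.616, permutation p = 0.00034, adjusted p = 0.00204). Without the 2 mice farthest from the median r was 0.574, and within batches 1 to 4 it was 0.662, 0.830, 0.411 and 0.581. Without NOD/ShiLtJ it was 0.535 and without A/J 0.575. The within-strain r was 0.493, and r of the 8 strain means was 0.717. Pdyn and Tac1 in Drd1+ neurons gave r = 0.538 (permutation p = 0.00207, adjusted p = 0.00621) and rho = 0.345 (permutation p = 0.0603, adjusted p = 0.121). Here r was 0.338 without the 2 farthest mice, 0.400 to 0.669 within batches and 0.0424 without NOD/ShiLtJ, so the relation rested on that strain, and the within-strain r was 0.294. Without batch 3 it missed the threshold (permutation test, adjusted p = 0.0511). Penk in Drd1+ and Drd2+ neurons gave r = -0.446 (permutation p = 0.011, adjusted p = 0.022) and rho = -0.154 (permutation p = 0.395, adjusted p = 0.395). Without the 2 farthest mice it was -0.394, within batches -0.662 to -0.317, and without A/J 0.0740, so it rested on A/J, and the within-strain r was 0.141. It missed the threshold without batch 2 and without batch 3 (permutation test, adjusted p = 0.0783 and 0.0764). Penk in Drd2+ neurons with Tac1 in Drd1+ neurons (r = 0.356, permutation p = 0.0595, adjusted p = 0.0714) and Tac1 in both clusters (r = 0.156, permutation p = 0.374, adjusted p = 0.374) did not pass, with within-strain r of 0.466 and -0.0383. Pdyn in both clusters missed the threshold by r (0.393, permutation p = 0.0352, adjusted p = 0.0528) and passed it by rho (0.442, permutation p = 0.0163, adjusted p = 0.0490), with a within-strain r of 0.631.

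Over mice, the genes most like a peptide in its home cluster were picked by r of batch-centred log2 CPM, as a description. Pdyn in Drd1+ neurons was followed by Irs2 (r = 0.810 over 32 mice), an adaptor of insulin signalling, then Bcl6, Cx3cl1, Nnat and Entpd6. Tac1 was followed by Dnajc18 (0.743), Adgrb1, Arhgef3, Zrsr1 and Dlx6os1. Penk in Drd2+ neurons was followed by Plppr4 (0.756), Dusp14, Abl2, Mir670hg and Shb. For Penk in Drd1+ neurons, where A/J stands apart, the leading genes were Gas5 (0.836), Commd7 and B230110G15Rik.

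Nuclei of a cluster were then split within each mouse by their own peptide count at 2000 UMIs, high meaning above the mouse's median, and the sums of both classes were compared in edgeR with the mouse as a block. The peptide itself was left out of its own comparison. For Pdyn in Drd1+ neurons the median was 0 in every mouse, so high meant at least 1 UMI. Of the high nuclei 1282 held exactly 1 Pdyn UMI, and the low nuclei held none at this depth. Low nuclei can still hold Pdyn, since 23.8% of Drd1+ nuclei had a UMI unthinned. Pdyn-high Drd1+ nuclei (1484, against 13776 low) carried more striosome RNA. Of 5024 genes 230 were called higher and 194 lower (4.58% and 3.86%), and without the filter on low counts 91 and 2094, so the balance of directions depends on that filter. All 7 tested striosome genes, a list that holds Tac1, rose, with a median log2 difference of 0.73 against 0.0129 over all genes. Nnat, a small membrane protein gene, was at 240 CPM in Pdyn-high and 93.3 CPM in Pdyn-low nuclei (2.52-fold, SE 0.129 on the log2 scale, edgeR adjusted p = 7.99e-10, higher in 29 of 32 mice). Oprm1 was at 97.8 and 51.5 CPM (1.87-fold, SE 0.118, edgeR adjusted p = 1.07e-10, 28 of 32). Sema5b, a semaphorin of axon guidance, and Luzp2 were both 2.17-fold higher, Chd7, a chromatin remodeller gene, 2.15-fold and Plcxd3 2.01-fold, the last in 32 of 32 mice. Tac1, counted in that list, was higher by 0.52 on the log2 scale (SE 0.0494, 29 of 32 mice). Of 8 tested matrix genes 2 rose and 3 fell, among them Epha4 (-0.44, lower in 30 of 32 mice) and Sgk1 (-0.49, 28 of 32). The direct pathway list, which also holds Tac1, moved too: of 6 tested genes 4 rose and 0 fell (median log2 difference 0.31). Of 12 genes shared by projection neurons 1 rose and 4 fell (median -0.0442). Lowest were Gm13974 (0.427-fold), Il1rapl2 (0.462-fold, lower in 31 of 32 mice) and Sgpp2 (0.468-fold). Of the lists of other cell types, 1 of 3 tested oligodendrocyte genes was higher (Mbp, log2 difference 0.11). So was the 1 tested gene of the interneuron list (Gad2, 0.29), which is not particular to interneurons. The part of both genes in the result was not tested.

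Tac1-high Drd1+ nuclei (5644, against 9616 low) were also richer in striosome RNA. The Tac1 median ran from 0 to 1 UMI over mice, and the classes had means of 1.67 and 0.0973 UMIs. Of 6416 genes 314 were called higher and 261 lower (4.89% and 4.07%), and without the filter 144 and 410, with more lower than higher. All 9 tested striosome genes, Pdyn among them, rose (median log2 difference 0.68 against 0.00106 over all genes). Sema5b was at 44.1 CPM in Tac1-high and 19.1 CPM in Tac1-low nuclei (2.21-fold, SE 0.110, edgeR adjusted p = 1.05e-19, 31 of 32 mice). C130073E24Rik (2.15-fold), Chd7 (2.07-fold), Nnat (1.84-fold) and Oprm1 (1.77-fold) rose too. Pdyn was at 89.5 and 51.8 CPM (1.65-fold, SE 0.0762, edgeR adjusted p = 8.98e-17, 29 of 32 mice). Of 9 matrix genes 4 fell and 1 rose, Sgk1 being lower in 31 of 32 mice (log2 difference -0.40). Of 7 tested direct pathway genes, Pdyn included, 3 rose and 2 fell (median log2 difference 0.02). Htr4, a serotonin receptor gene, was at 0.679-fold, Rgs6, a regulator of G protein signalling, at 0.693-fold and Zfhx3 at 0.708-fold. Mbp (log2 difference 0.0653, 1 of 4 tested oligodendrocyte genes) and Vcan (0.37, the 1 tested oligodendrocyte precursor gene) were higher as well. So was Gad2 (0.13, 1 of 2 tested genes of the interneuron list), which is not particular to interneurons. The part of these genes was not tested. The overlap of genes between the Pdyn and Tac1 splits was not tested.

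At least 1 peptide processing gene rose in each of the 5 splits. In Pdyn-high nuclei 6 of 9 tested were higher and none lower, beside 4.58% of all genes called higher, and in Tac1-high nuclei 7 of 10, beside 4.89%. In Penk-high Drd2+ nuclei 5 of 9 were higher, beside 5.52%, in Penk-high Drd1+ nuclei 1 of 10, beside 1.02%, and in Drd2+ nuclei with Tac1 2 of 9, beside 2.55%, none being lower in any. Scg2, a granin of dense-core vesicles, rose by 0.69 (SE 0.0872) with Pdyn and by 0.61 (SE 0.0587) with Tac1 on the log2 scale. Pam, the enzyme that amidates peptides such as substance P, rose by 0.34 and 0.30. Pcsk2 passed in neither of these splits (log2 differences -0.0476 and -0.00326).

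**Figure D5:**
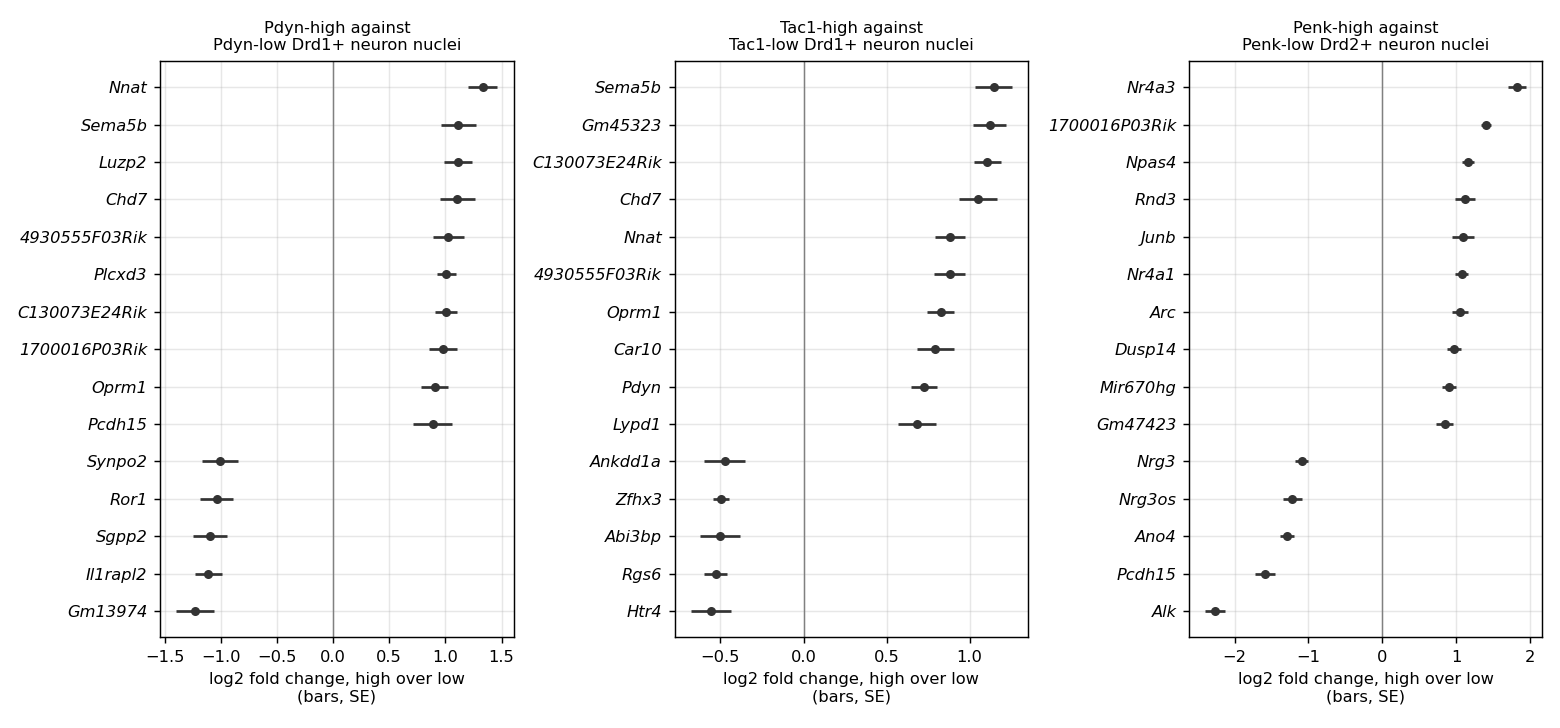
Log2 fold change (horizontal, bars are SE) of the leading genes between nuclei high and low for a peptide within the same 32 mice, for Pdyn and Tac1 in Drd1+ neurons and Penk in Drd2+ neurons. Nnat (1.33) leads for Pdyn, Sema5b (1.14) for Tac1 and Nr4a3 (1.82) for Penk, while Alk (-2.26) is lowest in Penk-high nuclei.

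Penk-high Drd2+ nuclei carried more activity-regulated RNA. The classes held 5225 and 7813 nuclei with means of 4.42 and 0.991 Penk UMIs at 2000 UMIs per nucleus. Of 5667 genes 313 were called higher and 225 lower (5.52% and 3.97%), and without the filter 185 and 315. All 7 tested activity-regulated genes rose, with a median log2 difference of 1.07. Nr4a3, an inducible nuclear receptor gene, was at 56.1 CPM in Penk-high and 15.3 CPM in Penk-low nuclei (3.53-fold, SE 0.127, edgeR adjusted p = 4.60e-25, 30 of 32 mice). Npas4, a transcription factor gene switched on by neuronal activity, was at 97.9 and 44.6 CPM (2.22-fold, SE 0.0822, edgeR adjusted p = 1.32e-28, 30 of 32). Junb (2.14-fold), Nr4a1 (2.10-fold) and Arc (2.06-fold) rose as well, as did Dusp14, a phosphatase gene (1.95-fold). In Pdyn-high and Tac1-high Drd1+ nuclei 3 of 6 and 5 of 6 tested genes of this list rose, with medians of 0.45 and 0.35. In those splits 4.58% and 4.89% of all genes were called higher, with medians of 0.0129 and 0.00106.

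On the other side, Penk-low Drd2+ nuclei were marked by Alk, a receptor tyrosine kinase gene, at 105 CPM against 21.0 CPM (0.208-fold in Penk-high, SE 0.134, edgeR adjusted p = 2.39e-17, lower in 32 of 32 mice). Pcdh15, a protocadherin gene, was at 0.333-fold, Ano4 at 0.408-fold and Nrg3, an ErbB4 ligand gene, at 0.469-fold, Ano4 and Nrg3 in 32 of 32 mice. Nrg3os, at 0.429-fold, is by its name antisense to Nrg3, and without known strand use in the counting their reads cannot be told apart. Tac1 was lower in Penk-high nuclei (log2 difference -0.53, SE 0.0912, 25 of 32 mice). Of 7 tested striosome genes, Tac1 included, 4 fell, among them Sema5b (18.9 against 38.6 CPM) and Khdrbs3 (35.3 against 61.9 CPM), and 2 rose, Nnat and Nr4a1, the latter also being on the activity-regulated list. Of 9 matrix genes 4 rose and none fell. Of 2 tested neuroblast genes both fell, Dcx and Sox11 each by 0.39 on the log2 scale.

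Drd2+ nuclei with a Tac1 UMI (1122 of 13038) had more RNA of several named genes that were low in Penk-high nuclei, and the overlap of genes between the splits was not tested. Alk was at 229 CPM in them and 56.7 CPM in the rest (4.00-fold, SE 0.142, edgeR adjusted p = 2.42e-14, 32 of 32 mice). Pcdh15 (3.46-fold), Ano4 (3.17-fold), Lingo2 (2.79-fold), Nrg3 (2.72-fold, 32 of 32 mice), Sema5b (2.61-fold) and Schip1 (2.40-fold, 32 of 32 mice) rose too. Of 4782 genes 122 were called higher and 149 lower (2.55% and 3.12%), 45.0% of calls being higher, and without the filter 86 and 2023. With DESeq2-type size factors in edgeR the counts were 189 and 96 (66.3% higher), and with no scaling the higher share was 58.0%. Without batch 3 they were 80 and 85. Penk was lower in these nuclei (log2 difference -0.28, SE 0.0389, 27 of 32 mice), as were 4 of 8 tested matrix genes, and 3 of 6 tested striosome genes rose. None of the direct pathway genes passed the filter on low counts. Mbp, a myelin gene of oligodendrocytes, was higher by 0.22 on the log2 scale, and its part in the result was not tested. As shares, Tac1 and Drd1 UMIs met in 0.230% of Drd2+ nuclei, 1.48 times the share given by independence within mice.

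The split of Drd1+ nuclei by Penk had 2353 nuclei in the high class. The Penk median was 0 in every mouse, so high meant at least 1 UMI, and 1931 of these nuclei held exactly 1. Of 6844 genes 70 were higher and 26 lower (1.02% and 0.380%), and without the filter 10 and 1174, the opposite balance. The largest change among the named genes was 1.51-fold, in Bola2 (edgeR adjusted p = 0.00133). The ribosomal gene Rpl7 was at 1.28-fold, and such genes have near-identical copies that can share reads. Its call was lost without batch 3 and without batch 4. None of 7 tested activity-regulated and none of 11 tested striosome genes, Pdyn and Tac1 included, was called, while Mbp rose by 0.14 on the log2 scale, a value whose part was not tested. Without batch 3 the counts were 18 and 10, without batch 1 they were 40 and 17, and without batch 4 they were 45 and 16, Bola2 being lost without batch 3 (edgeR adjusted p = 0.148). Of 8 tested direct pathway genes, Pdyn and Tac1 included, 0 rose and 1 fell (median log2 difference -0.061). No indirect pathway gene passed the filter. A Drd2 UMI was found together with Penk in 0.498% of Drd1+ nuclei, 76 nuclei in all and 2.00 times the share under independence. With Adora2a the count was 74 nuclei and 1.72 times. With 0.5 added to each count, the odds ratio was above 1 in 29 of 32 mice for each of these pairs, on few joint nuclei per mouse.

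In the same thinned nuclei, the peptides of one cell were associated to different degrees. Tac1 and Pdyn met in 5.26% of Drd1+ nuclei, 1.21 times the 4.34% of independence within mice, and the odds ratio was above 1 in 28 of 32 mice (median 1.53), with 0.5 added to each count, which raises ratios where joint counts are few. Penk and Pdyn met in 1.35% of Drd1+ nuclei (0.912 times, 13 of 32 mice above 1) and Penk and Tac1 in 6.94% (1.05 times, 19 of 32). In Drd2+ nuclei Penk and Tac1 met in 6.20%, 0.904 times the independent share, and only 4 of 32 mice had an odds ratio above 1. Counts of this depth leave many expressing nuclei at 0, so these shares are of nuclei with a UMI, not of nuclei that express a gene.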

How the data were processed

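Nuclei of frozen striatum from 32 mice were profiled for RNA and open chromatin. Per the submitters' processing notes, reads were processed with bcl2fastq 2.20.0.422 and Cell Ranger ARC 2.0.0 on mm10 (GRCm38). The authors deposited 4 matrices of raw UMI counts per gene and nucleus, 1 per batch, and a table of nuclei with strain, doublet and cluster calls, used here as deposited. Whether the counting used strand is not given in the sources used here. Of 89339 deposited barcodes, 65804 were singlets with 1 strain and 55672 were annotated nuclei. A mouse is a batch and a strain call, so mice were told apart by the authors' genotype calls alone. Nothing links a mouse to its sex.

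Counts of a mouse's nuclei in a cluster were summed where it had at least 10 nuclei, and 9 clusters with at least 3 mice of every strain were tested. Genes passed filterByExpr, and edgeR 4.0.16 (R 4.3.3; TMM scaling, robust quasi-likelihood) tested strain with batch as a block, adjusting by Benjamini-Hochberg over all genes tested, called at an adjusted p under 0.05. Each contrast set a strain against the mean of the other 7. For splits of nuclei and shares, each nucleus was thinned to 2000 UMIs, leaving out 135 Drd1+ and 165 Drd2+ nuclei that were shallower. Correlations and shares used permutation tests with 100000 resamples within batch and log2 CPM with a prior count of 2. Intervals are 95% and, like UMI counts, cover counting error only.

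Named genes were the 3 peptides, the 5 genes most like each, and in each split the 10 called genes with the largest rise and the 5 with the largest fall among genes of at least 10 CPM. A few genes that this rule names are not reported here. Members and gene lists were chosen with earlier results of these data known. Subsets of nuclei without UMIs of a marker list were chosen after seeing the data. The replicate number is the batch, which the labels say holds a mouse of every strain. Deviations from the strain mean correlated at 0.123 on average between Drd1+ libraries of the same batch and -0.0405 between batches (0.112 and -0.0369 in Drd2+ neurons). Alternatives were DESeq2 1.42.0, other scalings, filters and depths, no block, and leaving out each batch.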

Additional observations from a re-analysis of the deposited data

Results flagged for a closer look

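In 6 of 48 groups of 4 mice, 1 mouse lay far from the other 3 by Dixon's criterion, where chance gives about 1 in 20, and in each it was the mouse of batch 3. Pdyn in Drd1+ neurons of WSB/EiJ was 59.5 CPM in that mouse and 30.1 to 34.0 CPM in the rest. Penk in Drd1+ neurons of WSB/EiJ was 111 CPM against 79.3 to 81.6 CPM, and Penk in Drd2+ neurons of PWK/PhJ was 1766 CPM against 974.8 to 1090 CPM. Tac1 in Drd1+ neurons was 423 CPM against 318 to 328 CPM in CAST/EiJ, 677 CPM against 384 to 423 CPM in NOD/ShiLtJ and 419 CPM against 268 to 290 CPM in PWK/PhJ. Batch 3 also had the lowest median depth in Drd1+ and Drd2+ neurons, at 5014 and 4475 UMIs per nucleus against 6839 to 6934 and 6226 to 6449. In oligodendrocytes of that batch Penk was 160 CPM against 179 to 226 CPM in the others. The part of depth or free RNA in these values was not tested.

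The strain effect on Penk differed between Drd1+ and Drd2+ neurons (edgeR adjusted p = 7.44e-05 for the strain-by-cluster term), with the mean of A/J highest in the former and lowest in the latter.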

How the results depend on the processing

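The overall strain term of Penk and of Pdyn in Drd1+ neurons and the strain-by-cluster term of Penk kept their call under every alternative run, while contrasts of single strains did so in part. Those of A/J for Penk and of NOD/ShiLtJ for Tac1 in Drd1+ neurons kept theirs throughout, and that of NOD/ShiLtJ for Pdyn lost it in nuclei without striosome UMIs and kept it under the other settings run. Without the batch block (no replicate block), the strain term's edgeR adjusted p was 0.117 for Tac1 in Drd1+ neurons and 0.889 for Penk in Drd2+ neurons. For Tac1 in Drd2+ neurons it was 0.105 with thinned nuclei, 0.0749 in nuclei without direct pathway UMIs and 0.00114 to 0.265 with a batch left out. The interaction p of Pdyn ran from 0.0287 to 0.884 with a batch left out.

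The number of strains called against the rest was 4 for Penk in Drd1+ neurons, 2 without the block, 7 and 2 in nuclei without indirect pathway or eccentric neuron UMIs, and 1 to 6 with a batch left out. For every strain but A/J the rest includes A/J, so these calls are not independent of each other. For Pdyn in Drd1+ neurons the number was 3, and 1 in nuclei without striosome UMIs. PWK/PhJ, not called for Pdyn in the main fit (edgeR adjusted p = 0.0554), was called without indirect pathway (0.0348), eccentric (0.0227) or striosome UMIs (0.0381). For Tac1 the number of strains called was 3, 6 without scaling, 1 without the block and 1 to 4 with a batch left out. In Drd2+ neurons it was 2 for Penk, 0 without the block, 1 with thinned nuclei and 1 to 3 with a batch left out. For Tac1 it was 2, 1 without the block and with DESeq2, 0 with thinned nuclei and without direct pathway UMIs, and 0 to 3 with a batch left out.

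Counts of genes in the splits grew with depth and fell without the mouse block, and the cause was not tested. For Pdyn in Drd1+ neurons they were 91 higher and 2094 lower without the filter, 103 and 87 with no replicate block, 511 and 464 at 4000 UMIs and 713 and 662 without thinning. For Tac1 they were 144 and 410, 43 and 26, 618 and 473, and 866 and 821. For Penk in Drd2+ neurons they were 64 and 57 with no replicate block and 776 and 627 without thinning, with 185 higher without the filter and 529 higher at 4000 UMIs. For Penk in Drd1+ neurons they were 10 and 1174, 18 and 0 (edgeR; 659 genes had an unadjusted p under 0.05 with the block), 192 and 47, and 260 and 85, and with a batch left out 18 to 81 and 10 to 17. For Tac1 in Drd2+ neurons they were 189 and 96 with DESeq2-type size factors, 46 and 32 with no replicate block and 460 and 341 without thinning, with 2023 lower without the filter, 351 higher at 4000 UMIs, and 80 to 120 and 85 to 112 with a batch left out. Dazap1 turned there from -0.60 to 0.0739 at 4000 UMIs. Among named split genes, 40 calls were lost and 251 kept with a batch left out, and 59 were lost and 390 kept under other settings.

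Over mice, Pdyn with Tac1 had rho 0.345 and r from 0.505 to 0.584 with a batch left out. Penk in Drd2+ with Tac1 in Drd1+ neurons had r = 0.398 on plain CPM, 0.750 with no replicate block and 0.279 to 0.463 with a batch left out. Penk in both clusters had r = -0.00922 with no block, rho -0.154, and -0.522 to -0.402 with a batch left out. Pdyn in both had r = 0.434 on plain CPM, rho 0.442, and 0.278 to 0.457 with a batch left out. The adjusted permutation p of the share of nuclei was 0.218 for Tac1 and 0.396 for Penk with no block, and 0.0543 for Penk at 4000 UMIs. A peptide UMI was seen in 9.72% of Drd1+ nuclei for Pdyn at 2000 UMIs, so the depth limits how nuclei can be ranked.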
